A study of Mus musculus with 16 samples.

Results

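RNA-seq libraries of sorted green fluorescent (GFP+) cells from the mouse neocortex were compared between 2 Eed genotypes in the population that the labels call neurons. The 5 libraries were taken by their labels alone, and the series holds 16 libraries in all. The control group, named neuro wt in the labels, had 2 libraries of Eed+/+ cells. The Eed-null group, named neuro mosaic, had 3 libraries of Eed-/- cells. Mosaic analysis with double markers (MADM) had been used in both groups, on chromosome 7 and with Emx1-Cre, which acts in progenitors of the dorsal forebrain. Recombination between homologous chromosomes in a dividing progenitor then gives sparse colored daughter cells whose color follows their genotype. The labels give the strain as CD1, and the methods of the study name a mix of C57BL/6 and CD1. Animals were taken at postnatal day 4 and carried XGFAP-lacZ, a transgene with lacZ under the human GFAP promoter. Sorting took green cells positive for lacZ as astrocytes and those negative for it as neurons, so the population described here was defined by the absence of the astrocyte reporter and by no neuronal marker. Eed-/- cells came from animals labelled het, in which most cells around them were Eed+/-, whereas control animals were wild type throughout. Green cells of both genotypes carried 2 paternal copies of chromosome 7. Replicates came from individual animals, as the labels state for the astrocyte sort.

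Eed belongs to the core of Polycomb repressive complex 2 (PRC2), which methylates histone H3 at lysine 27 and thereby keeps developmental genes silent in cells where they do not belong. Without Eed the complex loses its methyltransferase activity. Well known targets are the Hox genes, which set position along the trunk and are normally silent in the neocortex, transcription factors of other lineages, and the cell cycle inhibitors of the Cdkn2a locus.

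The libraries differed in quality, and 1 control stood apart. Reads assigned to genes numbered 1786836 and 343640 in Eed+/+ replicates 1 and 2, and 1256686, 2058192 and 1618825 in Eed-/- replicates 1 to 3. Eed+/+ replicate 2 aligned poorly: 31.0% of its reads aligned uniquely, and 60.3% of those fell outside genes. In the other 4 libraries between 70.3% and 74.8% aligned uniquely, and between 8.55% and 18.7% of those fell outside genes. At these depths 3 reads correspond to 1.68 and 8.73 reads per 1000000 gene reads (CPM) in the 2 controls, so a low level could be missed in replicate 2. This floor, like every counting interval given here, covers counting error only. All 5 libraries had reads on the Y-linked genes Ddx3y, Eif2s3y, Kdm5d and Uty, with between 0 and 2 reads on Xist.

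The neuron label was checked against marker genes, and the data matched it only in part. Summed over 20 neuron markers, TMM-scaled CPM over the 15 labelled libraries of the series was 4764 and 6873 in the Eed+/+ and 3520, 4379 and 8394 in the Eed-/- libraries. Summed over 25 astrocyte markers it was 23802 and 31103 in the Eed+/+ and 32208, 35198 and 18614 in the Eed-/- libraries, above the neuron sum in each library. For 10 oligodendrocyte lineage markers it was 3395 and 1531 against 4088, 3468 and 2818. Both genotypes overlapped in all of these sums. In libraries labelled astrocyte the neuron sum ranged from 184 to 7367 and the astrocyte sum from 9590 to 112198. Of the 20 neuron markers, 19 and 15 had a read in Eed+/+ replicates 1 and 2, and 19, 20 and 20 in the Eed-/- libraries. Syt1, which encodes the calcium sensor of synaptic vesicle release, had 0 reads in both controls. Microglia markers summed to between 0 and 162 CPM and endothelial markers to between 0 and 30.5 CPM in the libraries labelled neuron, with all 10 microglia markers at 0 in Eed+/+ replicate 2. Levels here are those of a bulk of sorted cells, in which fewer cells of a type and less RNA per cell cannot be told apart, and the part of other cell types in the results was not tested.

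**Figure D1:**
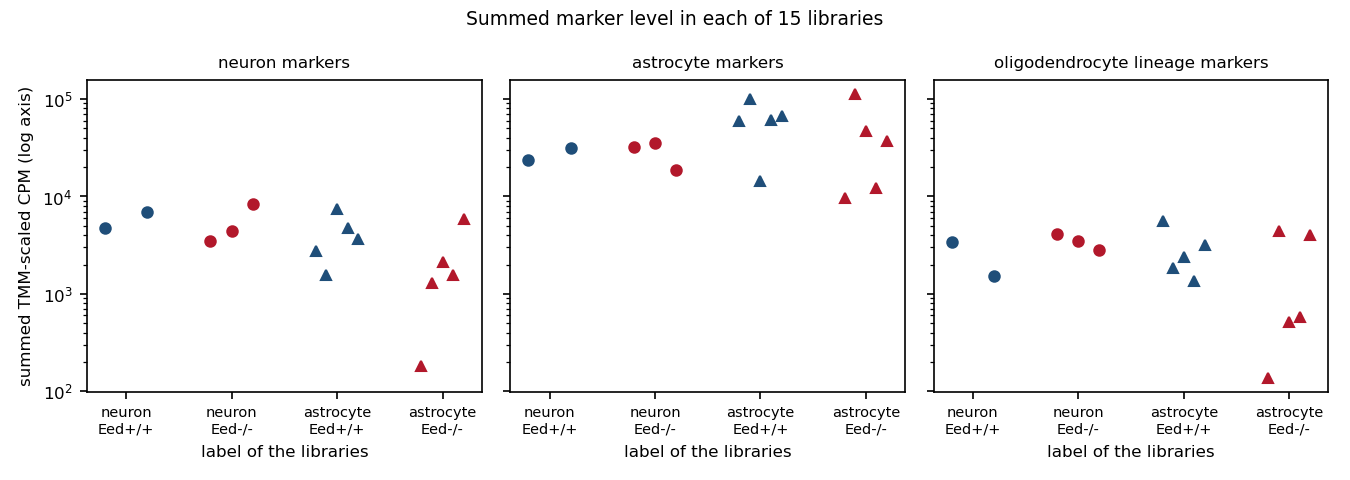
Summed TMM-scaled CPM (log axis) of neuron, astrocyte and oligodendrocyte lineage markers in each of the 15 labelled libraries, 1 point per library, with circles for libraries labelled neuron, triangles for those labelled astrocyte, blue for Eed+/+ and red for Eed-/-. In the 5 neuron libraries the astrocyte sum lies between 18614 and 35198 and the neuron sum between 3520 and 8394, with both genotypes overlapping.

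Eed itself had fewer reads per library in the Eed-/- group. The gene (ENSMUSG00000030619.9, chromosome 7 from 89954654 to 89980983, GRCm38) had 121 and 26 reads in the Eed+/+ and 21, 74 and 53 in the Eed-/- libraries. Scaled over the 5 libraries (TMM-scaled CPM, used for all levels below), this was 64.1 and 90.2 against 15.6, 37.8 and 32.0, with means of 77.1 ± 18.5 (SD, n = 2) and 28.5 ± 11.6 (SD, n = 3). Both controls lay above all Eed-/- libraries. A two-sided exact permutation test gave p = 0.2, the smallest value that 2 against 3 libraries allow, and edgeR gave a log2 fold change of -1.42 ± 0.70 (SE) at an adjusted p of 0.694, and -1.16 without Eed+/+ replicate 2. The counts cover the whole gene, including exons outside the deleted part, and so check the genotype only in part. Ezh2, the main methyltransferase of the complex, had 147 and 434 against 160, 148 and 249 CPM, and Suz12, a scaffold subunit, 47.1 and 149 against 18.5, 19.4 and 97.9, so the groups overlapped for both. Jarid2, an accessory subunit that helps to recruit the complex, lay lower in all Eed-/- libraries, at 89.0 and 163 against 49.6, 30.2 and 67.1 CPM (log2 fold change -1.35 ± 0.65, adjusted p 0.686, and -0.87 without Eed+/+ replicate 2). Of the 12 PRC2 genes, all tested, 3 lay lower without overlap (Eed, Jarid2 and Phf19) and 1 lay higher (Epop), beside 9.29% and 13.8% of all genes tested.

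Across all genes, edgeR's quasi-likelihood test called none of 11862 genes (0.0%) at an adjusted p of 0.05 or 0.2, and the smallest adjusted p, that of Crabp1, was 0.270. With an unadjusted p under 0.05 there were 251 genes higher (2.12%) and 611 lower (5.15%) in Eed-/- cells. DESeq2, run as an alternative, called 10 genes higher (0.0843%) and 17 lower (0.143%) at an adjusted p of 0.05, and limma-voom called 0. The DESeq2 calls on the higher side were Cdkn1a, Crabp1, Crym, Ephx1, Hoxb13, Hoxc9, Neurod6, Npy, Snhg11 and Vax2. In 1637 genes (13.8%) every Eed-/- library lay above both controls, and in 1102 (9.29%) every one lay below. These shares are the background for the counts of list members given below. The filter on low counts asked for 6.18 CPM in at least 2 libraries, and 639 tested genes reached it in Eed-/- libraries alone. They made up 178 of the 251 higher genes and 424 of the 1637. Such genes were tested only because of their level in Eed-/- libraries, so a count that holds them is a description only. Over all tested genes the log2 fold change had a median of 0.15.

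The 2 controls differed from each other in opposite ways on the higher and the lower side. Of the 251 genes higher at an unadjusted p under 0.05, 145 had more than double the CPM in Eed+/+ replicate 1 than in replicate 2. Of the same 251, 74 had 0 reads in both controls, so that leaving out replicate 2 could not turn them. Without replicate 2 the median of the 251 was 3.19, against 3.50 with it, and 168 kept an unadjusted p under 0.05. Of the 611 lower genes, 575 had more than double the CPM in Eed+/+ replicate 2 than in replicate 1. Without replicate 2, 608 of them could be tested, 145 kept a fall of more than 1 on the log2 scale, 20 kept an unadjusted p under 0.05, and their median moved from -2.15 to -0.59. Genes higher in Eed-/- cells are described first, and values without replicate 2 stand beside the log2 fold changes of genes that were lower.

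**Figure D2:**
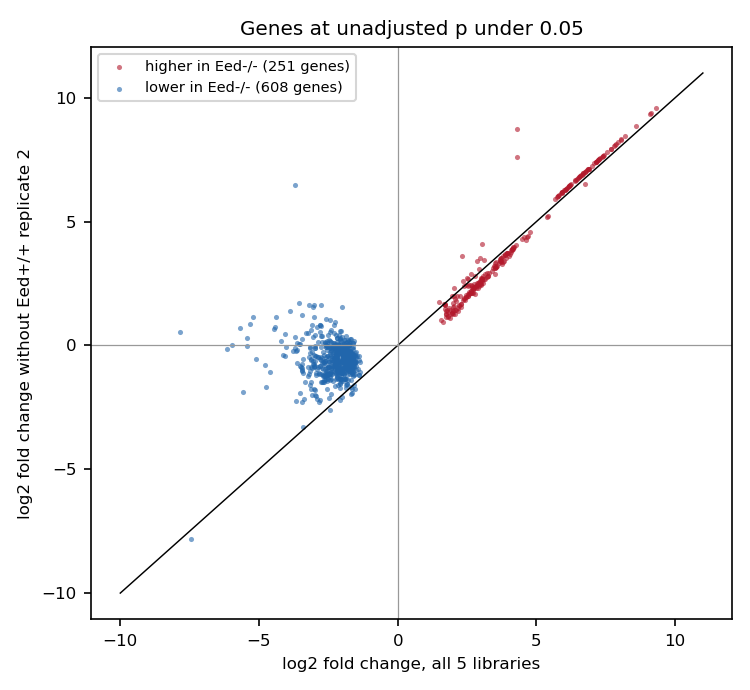
Log2 fold change (Eed-/- minus Eed+/+) of each gene at an unadjusted edgeR p under 0.05, with all 5 libraries (x axis) and without Eed+/+ replicate 2 (y axis), where red points are genes higher and blue points genes lower in Eed-/- cells and the diagonal marks equal values. The 251 higher genes, 74 of them at 0 reads in both controls, have medians of 3.50 and 3.19, whereas the 608 lower genes have a median of -0.59 on the y axis, where 145 of them lie below -1.

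Hox genes were read in Eed-/- cells and hardly at all in control cells. All 39 Hox genes together had 0 and 4 reads in the Eed+/+ libraries and 386, 497 and 443 in the Eed-/- libraries, which is 0 and 11.6 against 307, 242 and 274 reads per 1000000 gene reads. The 4 control reads were all on Hoxc8, in Eed+/+ replicate 2. Of the 39 genes, 35 had a read in at least 1 Eed-/- library and 4 (Hoxa6, Hoxa11, Hoxb1 and Hoxd12) had none anywhere. In 19 (48.7%) the controls had 0 reads and each Eed-/- library at least 1, which held for 470 of all 23689 genes with a read (1.98%). The reverse, 0 reads in each Eed-/- and at least 1 in both Eed+/+ libraries, held for 127 genes (0.536%) and for 0 Hox genes. The 2 rules are not equally easy to meet, because there were fewer controls and Eed+/+ replicate 2 was the shallowest library. Only 13 Hox genes passed the filter on low counts, 12 of them in Eed-/- libraries alone, so no summary over those 13 is given.

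All 4 clusters took part. The HoxA cluster (chromosome 6, 52155590 to 52260880) had 87, 77 and 93 reads in Eed-/- replicates 1 to 3, with 4 of its 11 genes read in every one. The HoxB cluster (chromosome 11, 96194316 to 96368256) had 159, 205 and 109, with 7 of 10 genes, and the HoxC cluster (chromosome 15, 102921103 to 103036852) 118, 169 and 209, with 7 of 9. The HoxD cluster (chromosome 2, 74668310 to 74765142) had the fewest, 22, 46 and 32, with 2 of 9. Paralog groups 9 to 13, which pattern the posterior trunk, held 59.1% of the Hox reads of Eed-/- cells. Groups 4 to 8 held 36.9% and groups 1 to 3, which pattern the hindbrain and neck, 4.0%.

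Hoxb13 and Hoxc9 led the family. Hoxb13, the most posterior gene of its cluster, had 69, 134 and 44 reads in the Eed-/- libraries, a level of 48.7 ± 21.1 CPM (SD, n = 3), and 0 in both controls. Hoxc9, expressed in the thoracic trunk, had 53, 102 and 84 reads, 47.4 ± 7.07 CPM (SD, n = 3), and 0 in both controls. Set against a floor of 3 reads over both controls, these levels were at least 35.6-fold and 34.4-fold higher in Eed-/- cells. The edgeR log2 fold changes, which depend on the prior count where a group is at 0, were 9.12 ± 1.71 and 9.08 ± 1.63 (adjusted p 0.641 for each), and the DESeq2 adjusted p values were 0.00398 and 0.00387. Both genes passed the filter in Eed-/- libraries alone, so these test values are a description only. Per kilobase of exon the mean level was 22.1 CPM for Hoxb13 and 19.5 for Hoxc9, which their spread did not separate, then 8.59 for Hoxc10 and 7.15 for Hoxa7. Hoxa7 had 26, 44 and 33 reads, Hoxb8 23, 29 and 22, and Hoxc10 20, 20 and 40, each against 0 in both controls.

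**Figure D3:**
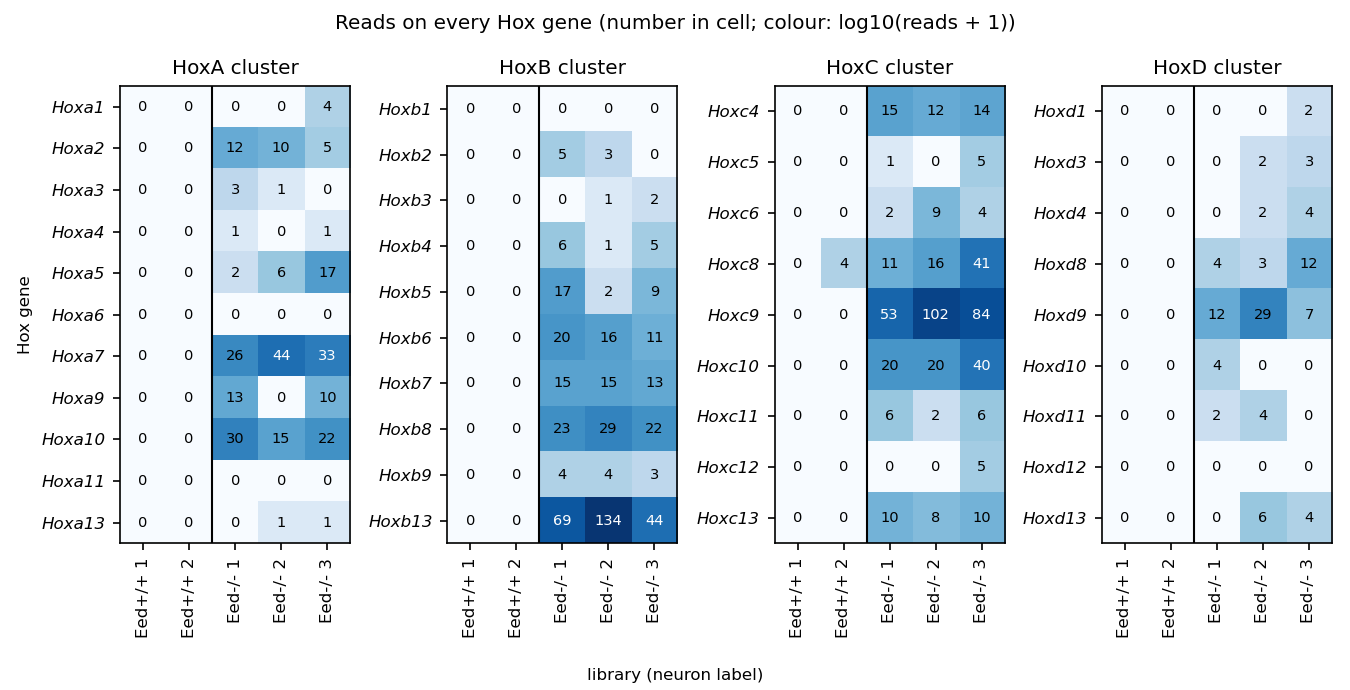
Reads on each of the 39 Hox genes (rows, anterior to posterior within a cluster) in each library (columns), with the number of reads in the cell and darker blue for more reads. The Eed+/+ columns are at 0 except for 4 reads on Hoxc8, whereas the Eed-/- columns fill mainly from paralog group 4 onward and reach 134 reads on Hoxb13.

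Other developmental transcription factors showed the same pattern in part. Of 66 factors that pattern other tissues or other parts of the nervous system, 20 (30.3%) had 0 reads in both controls and at least 1 in each Eed-/- library, and 0 showed the reverse. Among all genes with a read the shares were 1.98% and 0.536%, and the reverse was the harder rule to meet, as said for the Hox genes. A further 9 had no read in any of the 5 libraries. En1, which patterns the midbrain and hindbrain, was the most even, with 26, 37 and 33 reads and 19.4 ± 0.521 CPM (SD, n = 3) against 0 in both controls (log2 fold change 7.80 ± 1.83, adjusted p 0.644). Olig3, of the dorsal spinal cord and hindbrain, had 13, 43 and 14 reads and Isl1, of motor neurons, 7, 27 and 35, both against 0. Gata6, an endoderm and heart factor, had 12, 10 and 13 reads against 0, and Nkx2-5, a heart factor, 14, 45 and 15 against 0 and 1. Nkx2-2, which oligodendrocyte precursors express, differed from these: it had 133 and 38 reads in the controls and 92, 78 and 65 in Eed-/- cells. Wt1, of kidney and gonad, had 0 and 3 reads in the controls and 0 in Eed-/- cells.

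In all, 26 of 23689 genes (0.11%) had 0 reads in both controls and at least 10 in each Eed-/- library, and 0 genes showed the reverse. Of the 26, 9 were Hox genes (Hoxa7, Hoxa10, Hoxb6, Hoxb7, Hoxb8, Hoxb13, Hoxc4, Hoxc9 and Hoxc10) and 3 were on the list of other developmental factors (En1, Gata6 and Olig3). Further transcription factors among them were Vax2, of the ventral eye, Lhx5, of the hypothalamus and spinal cord, Uncx, of the vertebral column, and Tal1, of blood cells and spinal interneurons. The rest encoded proteins of other kinds, among them Crym, Slc30a3, Ngfr, Chrna3, Cavin1, Cnpy1, Gprc5c, Lrrc61 and the kinase inhibitor Cdkn2b. The last was Snhg11, named as a host gene of small nucleolar RNA. Reads summed over the 3 Eed-/- libraries ranged from 35 for Gata6 to 247 for Hoxb13.

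Promoter sequence is shown for 4 genes of different function that had at most 2 reads in the controls and were read in each Eed-/- library, because PRC2 is known to act at promoters rich in CG dinucleotides. Each is the RefSeq sequence of GRCm38.p6 from 250 bases before to 50 bases after a start of transcription, 5′ to 3′ on the strand of the gene, with every CG in capitals. They lie at chr11:96281655-96281954 (plus strand) for Hoxb8, chr1:120602237-120602536 (plus) for En1, chr9:54764498-54764797 (plus) for Crabp1 and chr4:89310983-89311282 (minus) for Cdkn2b.
Hoxb8: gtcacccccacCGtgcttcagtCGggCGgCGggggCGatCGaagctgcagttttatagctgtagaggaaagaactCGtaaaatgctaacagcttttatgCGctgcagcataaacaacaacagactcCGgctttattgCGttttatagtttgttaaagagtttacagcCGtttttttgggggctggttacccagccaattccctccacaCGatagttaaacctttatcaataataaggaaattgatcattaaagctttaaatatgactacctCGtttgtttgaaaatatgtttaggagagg
En1: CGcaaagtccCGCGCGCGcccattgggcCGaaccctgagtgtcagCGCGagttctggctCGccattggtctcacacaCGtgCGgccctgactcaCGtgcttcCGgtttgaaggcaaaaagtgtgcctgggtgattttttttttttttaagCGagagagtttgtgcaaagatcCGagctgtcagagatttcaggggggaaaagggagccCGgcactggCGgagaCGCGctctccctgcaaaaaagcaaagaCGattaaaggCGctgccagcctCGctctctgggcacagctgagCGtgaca
Crabp1: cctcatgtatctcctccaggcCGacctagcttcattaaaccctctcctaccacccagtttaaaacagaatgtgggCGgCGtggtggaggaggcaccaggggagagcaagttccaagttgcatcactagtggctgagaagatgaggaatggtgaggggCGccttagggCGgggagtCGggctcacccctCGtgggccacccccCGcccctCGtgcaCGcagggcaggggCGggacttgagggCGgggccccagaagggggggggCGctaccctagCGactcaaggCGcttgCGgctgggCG
Cdkn2b: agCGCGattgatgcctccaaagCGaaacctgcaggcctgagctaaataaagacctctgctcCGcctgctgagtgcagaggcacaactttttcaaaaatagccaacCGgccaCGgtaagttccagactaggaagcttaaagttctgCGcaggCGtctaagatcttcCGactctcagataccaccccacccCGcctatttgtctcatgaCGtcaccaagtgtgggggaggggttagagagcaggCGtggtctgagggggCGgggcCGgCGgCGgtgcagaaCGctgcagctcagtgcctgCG
The Hoxb8 window held 13 CG dinucleotides, En1 23, Crabp1 17 and Cdkn2b 18. Among all 32851 windows of this length in the RefSeq table, 94.6% held at least 1 CG, which reads the same on both strands, and the median was 7. The counts describe the windows and say nothing about binding there.

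Crabp1, which binds retinoic acid in the cytosol, was the gene with the smallest p. It had 2 and 0 reads in the Eed+/+ and 109, 219 and 190 in the Eed-/- libraries, or 1.06 and 0 against 80.7, 112 and 115 CPM. The ratio per gene read was 112, with an exact 95% counting interval from 30.8 to 926. Its log2 fold change was 6.74 ± 1.06 (adjusted p 0.270; DESeq2 adjusted p 0.00019), and without Eed+/+ replicate 2 it was the single gene that edgeR called. It passed the filter in Eed-/- libraries alone. Of the 10 tested genes of the retinoic acid list no other had an unadjusted p under 0.05. Crym, a cytosolic protein that binds thyroid hormone, had 48, 79 and 43 reads in Eed-/- libraries, 34.0 ± 7.33 CPM (SD, n = 3), against 0 in both controls, at least 24.5-fold higher. Dio2, which activates thyroid hormone, had 148 and 158 reads against 69, 100 and 173 (log2 fold change -2.17 with and -0.19 without Eed+/+ replicate 2).

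Neuropeptides were led by Npy, a peptide of interneurons that is also made by peripheral neurons. It had 6 and 0 reads in the controls and 73, 154 and 90 in Eed-/- libraries, or 3.18 and 0 against 54.1, 78.7 and 54.4 CPM (log2 fold change 4.64 ± 1.02, adjusted p 0.644). Scg2, a granin of secretory vesicles, had 4 and 0 against 20, 29 and 78 reads. Those 2 were the members with an unadjusted p under 0.05 among the 9 of 21 peptide genes tested, and both passed the filter in Eed-/- libraries alone. Of 21 tested genes of the ventral forebrain and interneurons 4 were higher and 2 lower at an unadjusted p under 0.05, beside 2.12% and 5.15% of all genes. Of these 4, 3 (Npy, Reln and Isl1) passed the filter in Eed-/- libraries alone. Calb2, which marks a class of interneurons, had 16 and 0 against 62, 111 and 63 reads. Gad1, which makes GABA, lay on the other side, with 108 CPM in each control and 30.4, 19.9 and 50.8 in Eed-/- libraries (log2 fold change -1.67 ± 0.67, adjusted p 0.668, and -1.68 without Eed+/+ replicate 2).

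Inhibitors of cyclin-dependent kinases were led by Cdkn1a. Cdkn1a (p21), which p53 induces and which halts the cell cycle, had 38 and 2 reads in the controls and 289, 405 and 372 in Eed-/- libraries. Its level was 13.5 ± 9.32 CPM (SD, n = 2) against 215 ± 8.93 (SD, n = 3), and the 3 Eed-/- libraries agreed closely at 214, 207 and 225. The log2 fold change was 3.83 ± 0.76 (adjusted p 0.641; DESeq2 adjusted p 0.00059) and 3.41 without Eed+/+ replicate 2. Cdkn2b (p15), a classical Polycomb target beside Cdkn2a, had 22, 30 and 21 reads against 0 in both controls, at least 10.5-fold higher. Cdkn2a, which encodes p16 and p19Arf, did not pass the filter, with 7, 5 and 5 reads against 0 in both controls. Cdkn2c (p18) had 52 and 4 reads against 91, 177 and 99 (log2 fold change 1.73 ± 0.74, adjusted p 0.670). Cdkn2b passed the filter in Eed-/- libraries alone, so no count over the tested members of this list is given.

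Several p53 response genes lay in the same direction. Of 17 tested, 10 were higher without overlap in Eed-/- libraries and 1 was lower, beside 13.8% and 9.29% of all genes. At an unadjusted p under 0.05, 4 were higher and 0 lower, beside 2.12% and 5.15% of all genes. Of the 10, 5 passed the filter in Eed-/- libraries alone, among them 3 of the 4 (Eda2r, Aen and Pmaip1). These were Phlda3, an inhibitor of Akt signaling (21 and 1 against 104, 120 and 56 reads), Eda2r, a death receptor (3 and 0 against 26, 24 and 35), Aen, an apoptotic nuclease (10 and 0 against 54, 83 and 14) and Pmaip1, the apoptosis inducer Noxa (3 and 0 against 15, 21 and 18). Over the 12 other members the median was 0.89 and 5 lay higher without overlap. Over the 11223 other genes the median was 0.08 and 1213 lay higher without overlap. The median of all tested members was 0.99, and 0.75 without Eed+/+ replicate 2. Adjusted p values of the 4 genes were 0.644 or above.

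More genes of the cell cycle itself lay higher than lower without overlap, which was also so over all genes tested (1637 against 1102). Of 52 G2M phase genes, all tested, 12 lay higher and 2 lower without overlap, beside 13.8% and 9.29% of all genes. At an unadjusted p under 0.05, 3 (Psrc1, Nek2 and Ccnb2, of which Nek2 passed the filter in Eed-/- libraries alone) were higher and 1 (G2e3, with a log2 fold change of -1.53, and -0.29 without Eed+/+ replicate 2) was lower. Over all genes 2.12% were higher and 5.15% lower. Psrc1, a spindle protein, had 15 and 1 reads in the controls and 73, 71 and 58 in Eed-/- libraries, and Ccnb2, a mitotic cyclin, 41.8 and 41.6 against 146, 188 and 67.7 CPM. Of 41 tested S phase genes 9 lay higher and 2 lower without overlap, and 3 were lower at an unadjusted p under 0.05, beside 5.15% of all genes. These were Uhrf1, Atad2 and Pola1, with log2 fold changes of -4.44, -2.45 and -2.27, and of 0.68, -0.08 and -0.78 without Eed+/+ replicate 2. The medians of the G2M and S phase lists were 0.21 and 0.24, against 0.15 over all genes. Without Eed+/+ replicate 2 they were 0.66 and 0.36, against 0.07. Rb1, the retinoblastoma protein that restrains entry into S phase, had 76.2 and 302 CPM in the controls and 24.4, 13.8 and 43.5 in Eed-/- libraries (log2 fold change -2.77 ± 0.75, adjusted p 0.644, and -1.49 without Eed+/+ replicate 2).

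Several genes of young excitatory neurons were higher in Eed-/- cells. Of 23 tested neurogenic and immature neuron genes 8 lay higher and 0 lower without overlap, beside 13.8% and 9.29% of all genes, 1 of them having passed the filter in Eed-/- libraries alone, with a median of 0.94 that fell to 0.39 without Eed+/+ replicate 2. Neurod6, which marks postmitotic cortical projection neurons, had 15.9 and 0 CPM in the controls and 66.7, 143 and 144 in Eed-/- libraries. Its log2 fold change was 3.51 ± 0.95 (adjusted p 0.644, DESeq2 adjusted p 0.0303), and 2.89 without Eed+/+ replicate 2. Neurod2, of the same family, had 10.6 and 13.9 against 33.3, 102 and 136 CPM, and Neurod1 19 and 2 against 14, 218 and 59 reads. Gap43, a protein of growing axons, had 152 and 5 against 214, 370 and 396 reads (log2 fold change 1.92 ± 0.74, and 1.28 without Eed+/+ replicate 2). The summed neuron markers overlapped between the genotypes, as given above, and were highest in Eed-/- replicate 3, where Rbfox3, Syt1, Reln, Bhlhe22 and Pou3f1, described next, were also highest among the Eed-/- libraries.

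Of 20 neuron markers, 5 were higher and 1 lower at an unadjusted p under 0.05, beside 2.12% and 5.15% of all genes. The higher ones included Rbfox3 (NeuN), with 19 and 0 reads against 43, 95 and 154, and Syt1, with 0 in both controls against 9, 12 and 86, which passed the filter in Eed-/- libraries alone. Gria2, an AMPA receptor subunit, was the lower one, with 887 and 834 against 336, 383 and 774 reads (log2 fold change -2.46 with and -0.63 without Eed+/+ replicate 2). Reln, secreted by Cajal-Retzius cells and interneurons, had 0 reads in both controls and 7, 19 and 253 in Eed-/- libraries, so most of its reads came from replicate 3. Among 27 tested cortical layer factors 2 were higher and 3 lower at an unadjusted p under 0.05, beside 2.12% and 5.15% of all genes. The higher ones were Bhlhe22 (15 and 1 against 32, 74 and 119 reads) and Pou3f1 (13 and 0 against 17, 70 and 104). Tle4, a corepressor of deep layer neurons, was among 3 lower ones, with 221 and 64 against 59, 45 and 163 reads (log2 fold change -1.61 with and -1.09 without Eed+/+ replicate 2). The others, Pou3f3 and Pou3f2, gave -1.69 and -1.95 with it and -0.27 and 0.0060 without it.

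Synaptic and channel genes showed no common direction. Of 35 tested glutamate receptor and postsynaptic genes, 4 were higher and 3 lower at an unadjusted p under 0.05, beside 2.12% and 5.15% of all genes, which hold for the next lists too. Grin2b, an NMDA receptor subunit, was at 70 and 7 against 84, 167 and 272 reads, and Grm2, a metabotropic receptor that passed the filter in Eed-/- libraries alone, at 0 and 0 against 3, 13 and 36. Dlg3, a scaffold at excitatory synapses, had 55 and 31 against 1, 2 and 38 reads (log2 fold change -2.98 with and -1.81 without Eed+/+ replicate 2). Of 31 presynaptic genes 1 (Syt1, as above) was higher and 0 lower. Among 33 tested voltage-gated channels 0 were higher and 4 lower, among them Kcnd3, an A-type potassium channel, with 215 and 21 against 29, 26 and 89 reads (log2 fold change -1.67 with and -1.95 without Eed+/+ replicate 2). None of 10 GABA and glycine receptor subunits had an unadjusted p under 0.05. Of 37 tested cytoskeleton genes 11 lay higher and 1 lower without overlap, beside 13.8% and 9.29% of all genes. Their median was 0.47, and 0.22 without Eed+/+ replicate 2. Nefm, a neurofilament that passed the filter in Eed-/- libraries alone, had 8 and 2 against 12, 62 and 63 reads.

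Among genes that guide axons, 2 ephrins were higher: Efna3, with 3 and 0 against 26, 40 and 46 reads, and Efna5, with 23 and 1 against 25, 68 and 96. The plexins Plxna3 and Plxnc1 were lower, with log2 fold changes of -2.38 and -1.65 that were -1.15 and -0.47 without Eed+/+ replicate 2. Thus 2 of 54 tested genes stood on each side at an unadjusted p under 0.05, near the 2.12% and 5.15% of all genes, although Efna3 passed the filter in Eed-/- libraries alone. Ngfr, the p75 neurotrophin receptor, had 17, 67 and 11 reads against 0 in both controls, and passed the filter in Eed-/- libraries alone. It was the 1 higher gene of 16 tested growth factor receptors, of which 3 were lower (Pdgfra, Pdgfrb and Insr), beside 2.12% and 5.15% of all genes. Pdgfrb and Insr gave log2 fold changes of -2.23 and -1.96, and of -0.40 and -1.12 without Eed+/+ replicate 2. Pdgfra, which marks oligodendrocyte precursors, was at 461 and 302 against 101, 86.4 and 178 CPM (log2 fold change -1.65 ± 0.63, adjusted p 0.668, and -1.92 without Eed+/+ replicate 2). The other markers of that lineage had no unadjusted p under 0.05, with a list median of -0.06. The Wnt list (34 tested) had 0 higher and 2 lower genes, the Notch list (22 tested) 0 and 1, and the BMP and TGF-beta list (26 tested) none. The same 2.12% and 5.15% of all genes stand beside these counts.

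Among fetal and imprinted genes, Igf2bp1 and 3 imprinted genes were higher. Igf2bp1, an RNA-binding protein of fetal tissues, had 4.24 and 10.4 CPM in the controls and 37.8, 43.5 and 55.6 in Eed-/- libraries (log2 fold change 2.86 ± 0.93, adjusted p 0.644). Magel2, expressed from the paternal copy on chromosome 7, had 2 and 0 against 25, 24 and 23 reads. Mest and Peg10, imprinted genes of chromosome 6, had 69 and 2 against 280, 430 and 85 reads and 9 and 0 against 23, 32 and 36. These 3 were the imprinted genes with an unadjusted p under 0.05, among 40 tested in 3 lists. Over all genes 2.12% were higher and 5.15% lower at that threshold. Magel2 and Peg10 passed the filter in Eed-/- libraries alone. Col2a1, a cartilage collagen, had 2 and 0 against 17, 45 and 58 reads, and Ephx1, an epoxide hydrolase of xenobiotic metabolism, 8 and 0 against 90, 114 and 51. Both passed the filter in Eed-/- libraries alone. For Ephx1 the log2 fold change was 4.01 ± 1.04 (adjusted p 0.644) and the DESeq2 adjusted p 0.0359, a description only.

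**Figure D4:**
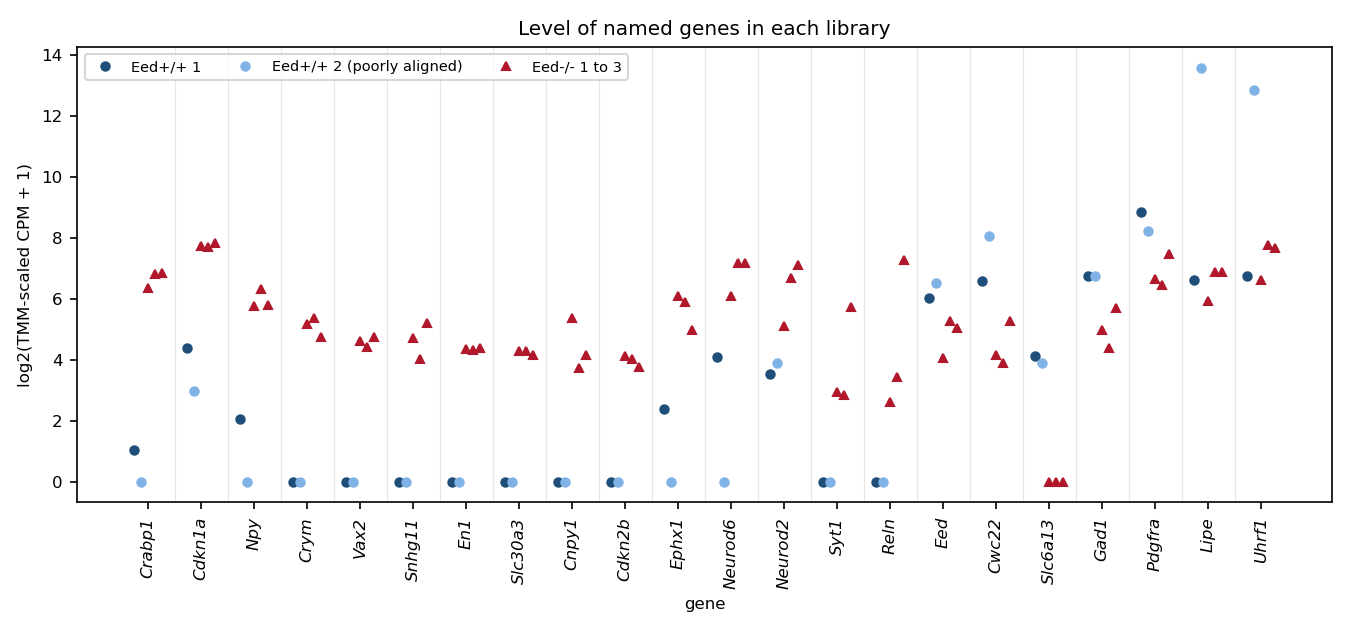
Log2(TMM-scaled CPM + 1) of 22 named genes in each library, with dark blue circles for Eed+/+ replicate 1, light blue circles for the poorly aligned Eed+/+ replicate 2 and red triangles for the 3 Eed-/- replicates. For genes from Crabp1 to Reln the Eed-/- points lie above both controls, whereas for Lipe and Uhrf1 only Eed+/+ replicate 2 lies apart from the other 4 libraries.

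In some of the genes that were lower in Eed-/- cells, Eed+/+ replicate 2 alone was high. Lipe, a lipase, had 183 and 3544 reads in the controls and 81, 231 and 194 in Eed-/- libraries, a log2 fold change of -5.97 with that library and 0.02 without it. Uhrf1, which guides maintenance DNA methylation, had 203 and 2130 against 131, 427 and 333 reads and log2 fold changes of -4.44 and 0.68. Chchd2, a mitochondrial protein, gave -4.01 and -0.07. All 3 were among the 17 lower genes that DESeq2 called, and for each of them the 3 Eed-/- libraries lay around Eed+/+ replicate 1. For 12 of those 17 genes the groups overlapped. Phf8, a histone demethylase, had 28.1 and 312 CPM in the controls and 17.0, 11.8 and 27.8 in Eed-/- libraries, so Eed+/+ replicate 1 was level with Eed-/- replicate 3. Its log2 fold change of -3.13 was -0.58 without Eed+/+ replicate 2.

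In other lower genes both controls lay well above the Eed-/- libraries. Slc6a13, a GABA transporter of the meninges, had 31 and 4 reads in the controls and 0 in each Eed-/- library. Taking 3 reads over the 3 Eed-/- libraries as the floor, its level was at least 27-fold lower in Eed-/- cells. Cwc22, a splicing factor that has near-identical copies in some mice, so that its reads are uncertain, had 95.8 and 264 CPM against 17.0, 13.8 and 38.1 (log2 fold change -2.95 ± 0.72, adjusted p 0.644, and -2.06 without Eed+/+ replicate 2). Tspoap1, a presynaptic scaffold protein, had 50.3 and 166 against 16.3, 5.11 and 16.3 CPM (-3.08 ± 0.81, adjusted p 0.644, and -2.01 without it).

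Other chromatin genes differed less when the poorly aligned control was left out. Of 19 tested PRC1 subunits and H3K27 demethylases, 4 were lower and none higher at an unadjusted p under 0.05, beside 5.15% and 2.12% of all genes. Among the 4 were Phc3, Cbx6 and Pcgf6. Without Eed+/+ replicate 2 the log2 fold changes of these 3 were -0.62, -0.41 and -0.0029, and the list median moved from -0.41 to 0.01. Of 13 tested genes of DNA methylation, 1 (Uhrf1) was lower and none higher, beside the same shares of all genes. The 12 PRC2 genes had a median of -0.75, which was -0.14 without replicate 2.

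Astrocyte markers did not move together. Aqp4, the water channel, had 509 and 770 CPM in the controls and 671, 719 and 450 in Eed-/- libraries, and Gfap, an intermediate filament, 175 and 34.7 against 289, 383 and 292 (log2 fold change 1.58 ± 0.75, adjusted p 0.686). Of 25 markers 1 (Ntsr2) was higher and 2, among them Slc4a4, were lower at an unadjusted p under 0.05, beside 2.12% and 5.15% of all genes. The list median was -0.06. Slc4a4, a bicarbonate transporter, had a log2 fold change of -1.72, and -0.78 without Eed+/+ replicate 2. Npm1 and Lrrn3 were used by the study as markers of neurons, not of astrocytes. Npm1, with 336 and 347 against 401, 467 and 327 CPM, and Lrrn3, with 73.6 and 79.8 against 58.5, 50.1 and 65.2, differed by log2 fold changes of 0.22 and -0.40.

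Lists of general cell functions had no member with an unadjusted p under 0.05 in 74 cytosolic ribosomal protein genes, 76 nuclear-encoded respiratory chain genes, 7 genes of the mitochondrial genome, 35 proteasome subunits, 20 glycolysis genes or 30 genes of cilia. Their medians with all libraries were 0.56, 0.75, 1.06, 0.46, 0.89 and 0.16. Without Eed+/+ replicate 2 they were 0.06, 0.04, 0.10, 0.20, 0.39 and 0.05, against 0.07 over all genes. Reads of the mitochondrial genome were 992 CPM in that library and between 20400 and 27710 in the other 4. Of 22 cholesterol synthesis genes 1 (Cyp51, with a log2 fold change of -1.54, and -0.39 without Eed+/+ replicate 2) was lower. Of 29 immediate early and stress genes 1 (Egr4, with 26, 17 and 5 reads against 0) was higher, having passed the filter in Eed-/- libraries alone. Over all genes 5.15% were lower and 2.12% higher at that threshold. Without overlap, 8 of the 29 lay higher and 0 lower, beside 13.8% and 9.29% of all genes. Of those 8, 2 passed the filter in Eed-/- libraries alone. The list median was 0.59, and 0.65 without Eed+/+ replicate 2.

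**Figure D5:**
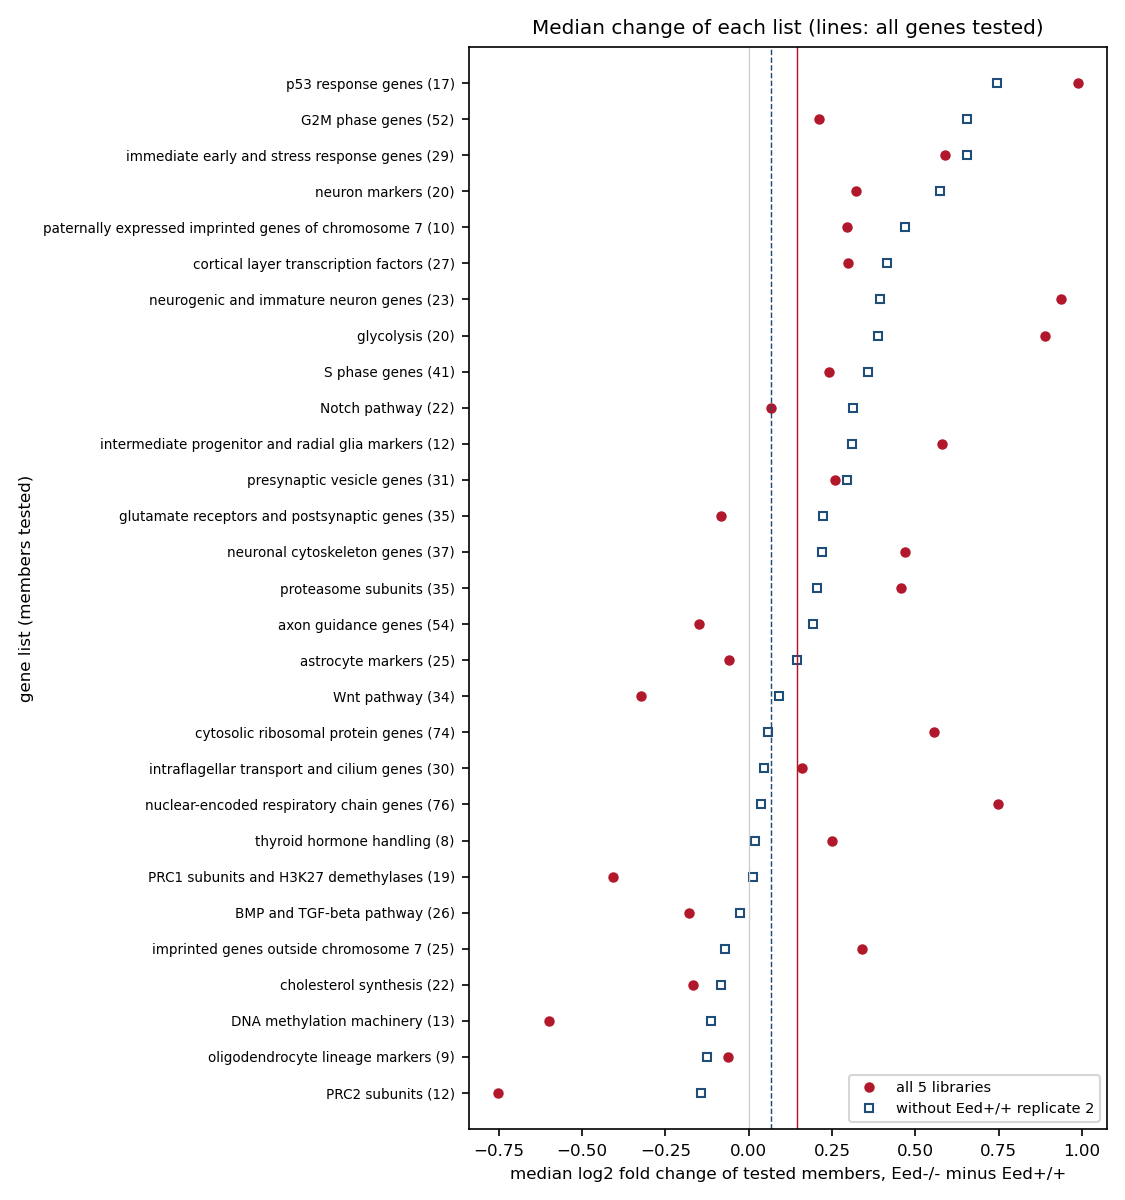
Median log2 fold change of the tested members of each gene list with at least 3 tested members and at least 75% of its members tested (a minimum set after the values were seen), with all 5 libraries (red circles) and without Eed+/+ replicate 2 (open blue squares), where the vertical lines mark the medians of all tested genes, 0.15 (solid) and 0.07 (dashed). Lists with fewer members tested, among them Hox genes, neuropeptides and kinase inhibitors, are left out, but lists shown also hold members that passed the filter in Eed-/- libraries alone, 5 of the 17 in the p53 list. Ribosomal and respiratory chain genes lie near the dashed line without replicate 2.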

How the data were processed

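From sorted cells the authors prepared cDNA libraries of polyA RNA with the Smart-Seq v2 protocol for Illumina sequencing. Per the labels, reads were aligned with STAR to mm10 (GRCm38). The deposited values are raw counts of reads per gene, neither normalized nor pooled. They rest on a gene annotation of a release not given in the sources used here. Each file held 53379 genes after 4 lines of read totals, which belong to no gene and were left out (between 8.55% and 60.3% of the uniquely aligned reads of the 5 libraries lay outside genes). Column 2, the unstranded count, was used because between 50.0% and 52.7% of stranded reads fell on the first strand, so reads of a gene and an antisense partner cannot be told apart. GENCODE mouse release 21 (GRCm38) supplied symbols and coordinates, matched for 53274 identifiers and unmatched for 105.

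Counts were tested with edgeR 4.0.16 in R 4.3.3 (TMM scaling, filterByExpr, robust quasi-likelihood fit, two-sided, Benjamini-Hochberg adjustment over 11862 genes) on the 5 libraries labelled neuron, with no covariate. The biological coefficient of variation was 0.582. The SE is the log2 fold change divided by the square root of F. DESeq2 1.42.0 and limma 3.58.1 (voom with quality weights) were alternatives, as were other filters, size factors and sets of libraries. DESeq2 without Eed+/+ replicate 2 was chosen after seeing the data. The scripts were tested on simulated data. Levels are TMM-scaled CPM, and groups "without overlap" have every library of one genotype above every library of the other.

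Named genes were the PRC2 subunits tested, the 12 protein-coding genes of smallest p per direction among those without overlap, the DESeq2 calls at 0.05, in each of 47 lists up to 4 members per direction with an unadjusted p under 0.05 (or else the most abundant members), and 10 further genes (Crabp1, Crym, Npy, Cdkn1a, Cdkn2a, Aqp4, Gfap, Lrrn3, Npm1 and Xist). Genes at 0 reads in one genotype and all Hox and developmental factors on the lists were added. Some genes that these rules select are not reported here. The comparison and the lists were chosen with earlier results of these data known. One library whose title and cell type label disagree, and which the labels thus put in no group, was not used. The study set aside 5 libraries without naming them in the sources used, and all 5 libraries labelled neuron were kept.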

Additional observations from a re-analysis of the deposited data

How the results depend on the processing

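With 2 against 3 libraries and 1 poorly aligned control, counts of calls depended on the test and on single libraries, and low control levels were limited by the depth of Eed+/+ replicate 2. At an adjusted p of 0.05 the count of 0 became 27 with DESeq2, 127 without a filter on low counts, 3 in 1 fit over all 15 libraries and 5 with DESeq2 without Eed+/+ replicate 2, an alternative chosen after seeing the data. At 0.2 these 4 settings gave 150, 284, 3 and 11 genes, limma-voom gave 13 and RLE size factors 1. Leaving out 1 library gave between 0 and 2601 genes at 0.05 and between 0 and 5609 at 0.2. The high values came without Eed+/+ replicate 1, which left the poorly aligned library as the lone control, assumed to vary like the other group.

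Of the genes on the lists, 63 were higher and 38 lower at an unadjusted p under 0.05. Without a filter 95 were higher, in 1 fit over all 15 libraries 24 were higher and 5 lower, and leaving out 1 library gave between 36 and 297 higher and between 9 and 114 lower (77 and 13 without Eed+/+ replicate 2). Genes without overlap numbered between 2005 and 5803 higher and between 1345 and 3813 lower when 1 library was left out. Genes at 0 in both controls and read in each Eed-/- library numbered 61 at a minimum of 5 reads, and between 31 and 1316 with 1 library left out, the highest again without Eed+/+ replicate 1. The log2 fold change of Eed lay between -1.68 and -1.13 over all alternatives.

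Replicate numbers were shared by the genotypes, but the animals differed and the numbers did not pair them: deviations from the group means correlated at 0.115 for number 1 and -0.282 for number 2. With the replicate number as a block edgeR called 0 genes at 0.05 and 1 at 0.2, and 53 listed genes were higher and 24 lower at an unadjusted p under 0.05. Crossing the numbers was not run because only 2 of the 3 Eed-/- libraries share a number with a control.

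Of the 104 tested genes mentioned above beside Eed, which are not all that the naming rule selects, 98 kept their direction in every alternative that could fit them. The 6 others turned. With 1 library left out Lipe ranged from -6.90 to 0.023, Uhrf1 from -5.36 to 0.68, Ezh2 from -1.17 to 0.33, Pou3f2 from -2.70 to 0.0060 and Aqp4 from -0.27 to 0.27 on the log2 scale. DESeq2 without Eed+/+ replicate 2 gave 0.0245 for Lipe, 0.68 for Uhrf1, 0.34 for Ezh2, 0.27 for Aqp4, 0.0108 for Pou3f2 and 0.0022 for Pcgf6. Aqp4, with a log2 fold change of -0.06, was also positive with limma-voom (0.11), without a filter (0.0883), in 1 fit over all 15 libraries (0.0572) and with the replicate block (0.15). In Lipe, Uhrf1, Ezh2, Pou3f2 and Pcgf6 every turn came in a setting without Eed+/+ replicate 2. For Aqp4 the cause was not tested.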
